A study of Mus musculus with 6 samples.

Results

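Hydroxysteroid dehydrogenases are enzymes that move hydrogen between steroid hormones and pyridine nucleotide cofactors, and several of them act mainly on fatty acids or amino acid breakdown products. The 9 genes described here were chosen by symbol (Hsd3b2, Hsd3b3, Hsd3b4, Hsd11b1, Hsd17b4, Hsd17b10, Hsd17b11, Hsd17b12 and Hsd17b14) out of 23282 rows. The rule itself uses no measured value, but the genes were proposed with earlier results of these data known. All 9 had a row and all 9 passed the filter on low values, which left 13317 genes for testing. RNA came from whole kidney of 3 C57BL/6 mice (B6) and 3 BALB/c mice (labelled BALBc), both inbred laboratory strains, with 1 library per numbered replicate and, per the design text, 3 mice per strain. The labels name no genotype beyond the strain, and no sex, age or treatment. That each library is a separate mouse follows from those numbers and is not stated otherwise, so p-values measure the spread between these libraries. The library kit primes on poly(A) tails, so that a transcript is read at its 3′ end and read numbers do not scale with transcript length. Levels are in CPM as deposited (1 read was worth 0.0968 to 0.118 CPM, and a library's values summed to between 980188.4 and 1043599), and are given for B6 replicates 1, 2 and 3 and then BALB/c replicates 1, 2 and 3.

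The family falls into groups by role. The Hsd3b enzymes oxidise the 3β-hydroxyl group of steroids and shift a double bond, a step that every active steroid hormone passes through, or, for some rodent forms, run the 3-keto reduction. Hsd11b1 regenerates active glucocorticoid from its inactive 11-keto form, opposite in direction to the kidney's aldosterone-protecting enzyme Hsd11b2. The Hsd17b genes were named for the 17β position of oestrogens and androgens, but Hsd17b4 is a peroxisomal fatty acid enzyme, Hsd17b10 a mitochondrial enzyme of isoleucine breakdown, Hsd17b11 a lipid droplet protein and Hsd17b12 the reductase of fatty acid elongation.

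Sequences of the Hsd3b genes come first, since they decide which of these genes a 3′ read can tell apart. All lie on the minus strand of chromosome 3 (GRCm38, the assembly that mm10 names): Hsd3b4 at chr3:98499071-98510514, Hsd3b2 at chr3:98709255-98724543 and Hsd3b3 at chr3:98741523-98763127. The last 60 coding bases before the stop codon are shown 5′ to 3′, from GENCODE M21 transcripts, with bases that differ from Hsd3b4 in capitals.
Hsd3b4: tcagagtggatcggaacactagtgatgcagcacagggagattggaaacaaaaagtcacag
Gm10681: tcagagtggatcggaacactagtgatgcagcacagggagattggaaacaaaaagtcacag
Hsd3b5: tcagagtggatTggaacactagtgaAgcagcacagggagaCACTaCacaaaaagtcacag
Hsd3b3: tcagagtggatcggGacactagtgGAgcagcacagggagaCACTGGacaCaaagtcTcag
Hsd3b2: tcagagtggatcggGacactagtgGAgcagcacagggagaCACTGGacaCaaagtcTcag
Gm10681, a neighbouring gene at chr3:98552542-98588807, had 0 differences from Hsd3b4 here, and both its coding sequence and its last 300 transcript bases were 100% identical to those of Hsd3b4. Hsd3b5 differed at 7 of the 60 bases, and Hsd3b3, Hsd3b2 and Hsd3b6 each differed at 11 and were identical to one another. Over the 1119 coding bases Hsd3b2 and Hsd3b3 were 95.1% identical. Over the last 300 bases of the longest transcript of each they were 50.7% identical, against 94% for Hsd3b3 and Hsd3b6. Words of 50 bases taken every 5 bases from those last 300 bases were shared with other genes for 15.7% of the 51 words of Hsd3b3, 23.5% of those of Hsd3b2 and 100% of those of Hsd3b4. The shared words of Hsd3b3 lay in Hsd3b6 and Hsd3b2, and genes sharing those of Hsd3b2 included Gm13722 and H2-Q4. Values depended on the transcript: over all coding transcripts compared, shares were 15.7% to 17.6% for Hsd3b3, 3.92% to 39.2% for Hsd3b2 and 100% for Hsd3b4. Reads of Hsd3b4 and Gm10681 therefore cannot be assigned to one of them by sequence, and how the deposited counts divided them is not given in the sources used here. For the other 6 genes 0% of the words were shared and no exon overlapped another gene.

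All 3 Hsd3b genes were lower in BALB/c kidney than in B6 kidney, and none of the other 6 genes passed the test in either direction. Over all 13317 genes tested, 9.09% were called, 4.93% lower and 4.17% higher in BALB/c, beside 3 of 9 lower and 0 of 9 higher here. The 6 genes that were not called had unadjusted limma p-values from 0.160 (Hsd17b11) to 0.741 (Hsd17b12), and none was called by limma-voom. Calls rest on limma, with Benjamini-Hochberg adjustment across every gene tested and a threshold of 0.05 on the adjusted p. The median log2 fold of the 9 genes, BALB/c over B6, was -0.12 with 7 negative folds, against a median of 0.0023 over all genes. In whole tissue, fewer cells of a type and less RNA per cell cannot be told apart. Whether BALB/c reads aligned to mm10, an assembly of the B6 strain, as well as B6 reads did was not tested.

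**Figure D1:**
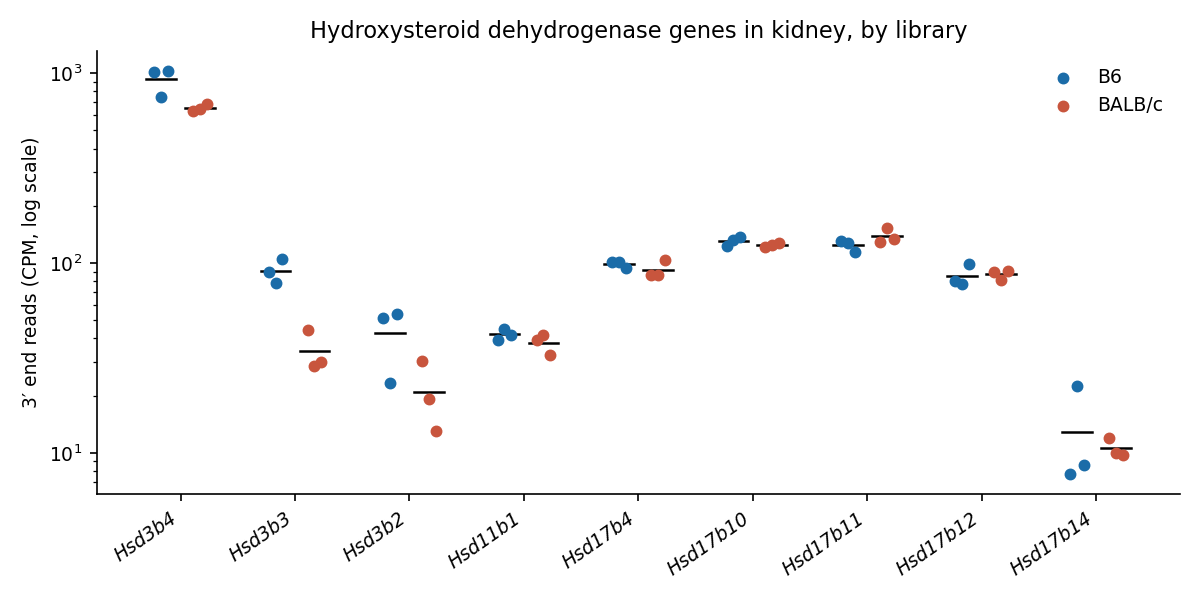
CPM (log axis) of the 9 genes in each of the 6 libraries, with points for libraries and a bar for each strain's mean. The 3 BALB/c libraries lie below all B6 libraries for Hsd3b4 and Hsd3b3, and the strains overlap for the other 7 genes.

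Hsd3b4, whose product has been described as a kidney-type 3-ketosteroid reductase, was the most abundant of the 9 by 3′ reads. It stood at 1010.3, 749 and 1025 CPM in B6 against 630.2, 648 and 684 CPM in BALB/c. The strains did not overlap, but B6 replicate 2 stood close to the BALB/c libraries and far from the other B6 libraries. Mean levels were 928 ± 156 CPM in B6 against 654 ± 27.2 CPM in BALB/c (SD, n = 3 each), so BALB/c kidneys held 70.4% of the B6 level. The log2 fold was -0.49 (SE 0.11, 95% interval -0.71 to -0.27, limma adjusted p = 0.0031). Without B6 replicate 1 the fold was -0.42 and the adjusted p 0.0501; a variance prior without a trend gave an adjusted p of 0.166, in a range of 4.8e-06 to 0.166 over all alternatives.

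Its sequence twin Gm10681 held 749, 549 and 737 CPM in B6 against 432, 438 and 478 CPM in BALB/c, again without overlap and with B6 replicate 2 the lowest B6 library. The log2 fold of Gm10681 was -0.58 (SE 0.11, limma adjusted p = 0.00063). Gm10681 took between 41.8% and 42.6% of the joint reads of the pair in B6 and between 40.3% and 41.1% in BALB/c, and every B6 library was above every BALB/c library. Summed, the pair gave 1759, 1298 and 1762 CPM in B6 against 1062, 1085 and 1161 CPM in BALB/c. The sum fell by 0.53 on the log2 scale (SE 0.11, limma adjusted p = 0.0017), a value that does not depend on how reads were divided between the 2 genes; this sum was added after the data were seen. Gm4450, which shares the same 3′ words, was not analysed here.

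Hsd3b3 showed the steepest difference of the 9 genes. Levels were 89.6, 78.1 and 105 CPM in B6 against 44.1, 28.5 and 29.95 CPM in BALB/c, so the highest BALB/c library was well under the lowest B6 library. The mean fell from 90.9 ± 13.4 to 34.2 ± 8.62 CPM (SD, n = 3 each), or 37.7% of the B6 level, with a log2 fold of -1.40 (SE 0.16, 95% interval -1.73 to -1.07, limma adjusted p = 1.21e-06). The reads behind these values numbered 775 to 935 per library in B6 and 242 to 456 in BALB/c. It was called under all 17 alternatives run, with a highest adjusted p of 0.0183.

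Hsd3b2 was the least abundant of the 3 and the most variable of them between libraries. It stood at 51.5, 23.4 and 54.0 CPM in B6 against 30.6, 19.1 and 13.0 CPM in BALB/c. B6 replicate 2 was below BALB/c replicate 1, so the strains overlapped. The mean fell from 43.0 ± 17.0 to 20.9 ± 8.91 CPM (SD, n = 3 each), with a log2 fold of -0.99 (SE 0.27, 95% interval -1.55 to -0.44, limma adjusted p = 0.0187). The call rested on single libraries: the adjusted p was 0.166 without B6 replicate 1, 0.125 without B6 replicate 3, 0.0581 without BALB/c replicate 2 and 0.101 without BALB/c replicate 3, against 0.00018 without B6 replicate 2. It was also lost with no filter on low values (adjusted p = 0.135), under a variance prior without a trend (0.246) and under a robust prior (0.257).

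Among the 9 genes, 2 had strains that did not overlap (Hsd3b3 and Hsd3b4, both lower in BALB/c), against 25.4% of all genes tested in either direction and 12.9% in that direction. All 3 Hsd3b genes and Gm10681 had their lowest B6 value in replicate 2. The order within BALB/c differed by gene: replicate 1 was highest for Hsd3b3 and Hsd3b2 and lowest for Hsd3b4 and Gm10681.

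Summed over the 6 Hsd3b genes, reads were also lower in BALB/c. Reads of Hsd3b1 to Hsd3b6 added up to 1153, 853 and 1188 CPM in B6 against 707, 697 and 728 CPM in BALB/c, where the 3 libraries lay close together. This sum fell by 0.57 on the log2 scale (SE 0.11, 95% interval -0.79 to -0.35, limma adjusted p = 0.00081), to 66.8% of the B6 level. Hsd3b4 made up 87.6%, 87.7% and 86.3% of it in B6 and 89.1%, 92.8% and 93.9% in BALB/c. Hsd3b3 made up 7.77%, 9.15% and 8.82% in B6 and 6.24%, 4.09% and 4.11% in BALB/c. In each case the strains did not overlap: the share of Hsd3b4 was 4.74 percentage points higher in BALB/c and that of Hsd3b3 differed by -3.77 points. Both differences had an exact two-sided permutation p of 0.1, the smallest that 3 against 3 libraries can give, or 0.15 after adjustment over the 3 shares. Shares of 1 sum are tied: a lower share of Hsd3b3 goes with a higher share of the rest, so these are not independent results. The share of Hsd3b2 overlapped between the strains, at 3.92% ± 1.02 in B6 against 2.95% ± 1.28 in BALB/c (SD, n = 3 each; exact permutation p = 0.2). These shares leave out Gm10681 and depend on how the reads it shares with Hsd3b4 were divided. Counted with Gm10681, the sum was 1743 ± 296 CPM in B6 against 1160 ± 39.96 CPM in BALB/c (log2 fold -0.57, limma adjusted p = 0.00078). Hsd3b4 then made up 53.1% to 53.4% in B6 and 55.3% to 57.0% in BALB/c, and Hsd3b3 4.71% to 5.57% and 2.48% to 3.88%.

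Hsd3b5, Hsd3b6 and Hsd3b1, the rest of the numbered Hsd3b genes of the cluster, were close to silent in these kidneys. Hsd3b5 held 2.35 ± 0.80 CPM in B6 against 1.54 ± 0.46 CPM in BALB/c (log2 fold -0.39, limma adjusted p = 0.625). Hsd3b6 averaged 0.73 and 0.39 CPM, and Hsd3b1, the main adrenal and gonadal form, 0.037 and 0.13 CPM; both were under the filter and not tested. Hsd3b6 is the gene whose coding end is the same as those of Hsd3b3 and Hsd3b2.

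**Figure D2:**
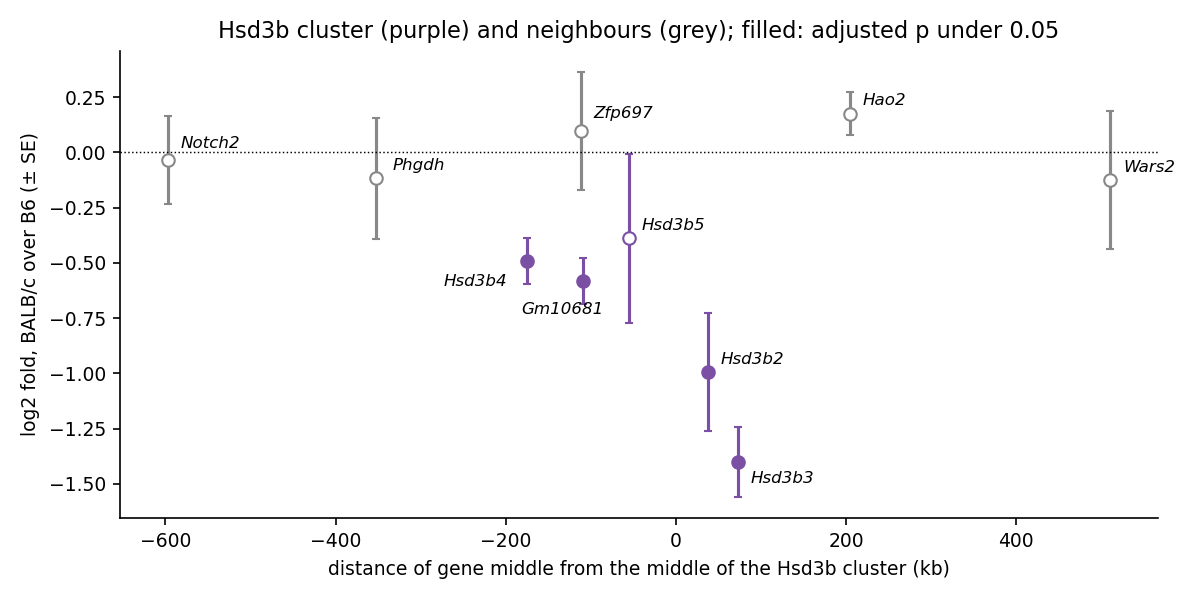
Log2 fold of genes in and around the Hsd3b cluster (vertical axis, log2(CPM + 1) scale, bars are standard errors) against distance in kb from the cluster's centre. Hsd3b4, Gm10681, Hsd3b2 and Hsd3b3 lie below 0 and are called; the 5 grey neighbours lie between -0.13 and 0.18 and are not.

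Along the chromosome, 6 genes in or within 500 kb of the cluster, besides the 6 Hsd3b genes, are reported. Gm10681, which lies inside the cluster between Hsd3b4 and Hsd3b5, was lower in BALB/c, as given above. The other 5 had log2 folds of -0.03 for Notch2, -0.12 for Phgdh, -0.13 for Wars2, 0.10 for Zfp697 and 0.18 for Hao2, and none was called. Zfp697 matters for the counts, because its exons overlap those of Hsd3b2 and Hsd3b3 on the other strand and no source says whether strand was used; it held 20.4 ± 9.57 CPM in B6 against 20.01 ± 1.08 CPM in BALB/c (limma adjusted p = 0.889). Around the other 6 genes, 0 of 8 tested neighbours of Hsd17b10 were called, and 1 lower and 1 higher of 7 for Hsd17b12. Called were also 1 lower of 3 for Hsd17b4 and 2 lower of 38 for Hsd17b14. For Hsd17b11 it was 2 higher of 8, and for Hsd11b1 1 lower and 2 higher of 9. These small counts stand beside 9.09% called over all genes tested, 4.93% lower and 4.17% higher.

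Promoters of the 3 genes are shown because the genes moved in the same direction. The 250 bases before the first listed start site of each gene, from RefSeq on GRCm38.p6 and written 5′ to 3′ on the minus strand, carry in capitals every match on either strand to TGTTCT, the core of a steroid receptor site, and to GTTAAT, the core of an HNF1 site.
Hsd3b4, chr3:98510568-98510817: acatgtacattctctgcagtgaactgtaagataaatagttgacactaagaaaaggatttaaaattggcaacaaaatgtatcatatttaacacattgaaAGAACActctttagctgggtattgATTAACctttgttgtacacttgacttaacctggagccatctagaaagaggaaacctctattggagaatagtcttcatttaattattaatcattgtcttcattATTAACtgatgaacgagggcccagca
Hsd3b3, chr3:98763129-98763378: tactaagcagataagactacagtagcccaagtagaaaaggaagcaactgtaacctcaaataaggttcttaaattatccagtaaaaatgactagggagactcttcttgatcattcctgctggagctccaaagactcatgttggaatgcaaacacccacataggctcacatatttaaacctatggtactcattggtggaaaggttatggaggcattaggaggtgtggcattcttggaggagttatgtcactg
Hsd3b2, chr3:98724544-98724793: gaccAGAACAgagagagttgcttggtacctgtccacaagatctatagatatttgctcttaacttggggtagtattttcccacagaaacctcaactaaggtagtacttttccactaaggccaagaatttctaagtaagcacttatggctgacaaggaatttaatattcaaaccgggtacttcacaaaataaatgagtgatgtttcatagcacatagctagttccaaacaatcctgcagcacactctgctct
The Hsd3b4 window shown held TGTTCT on the other strand 152 bases before the start and GTTAAT on the other strand 128 and 26 bases before it. RefSeq lists a second start site for Hsd3b4, downstream of the first, before which the same matches lie 247, 223 and 121 bases away, and a second for Hsd3b3, whose window is 98.8% identical to the one shown and also holds no match. In Hsd3b2 there was 1 match, to TGTTCT 246 bases before the start, and in the Hsd3b3 window shown there was none. TATAAA and CAAAGTCCA, the cores of a TATA box and an HNF4 site, were found in none of the 3 windows shown. Among 32817 such windows of all genes, TGTTCT was found in 16.1%, GTTAAT in 6.44%, TATAAA in 12.4% and CAAAGTCCA in 0.384%. Aligned end to end, the windows were 53.4% identical between Hsd3b2 and Hsd3b3, 54.0% between Hsd3b3 and Hsd3b4 and 51.7% between Hsd3b2 and Hsd3b4. The windows of the listed Hsd3b4 start sites overlap, yet scored 53.7%, so values at this level do not show whether windows share sequence. These matches are letters in a window and no test of binding.

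**Figure D3:**
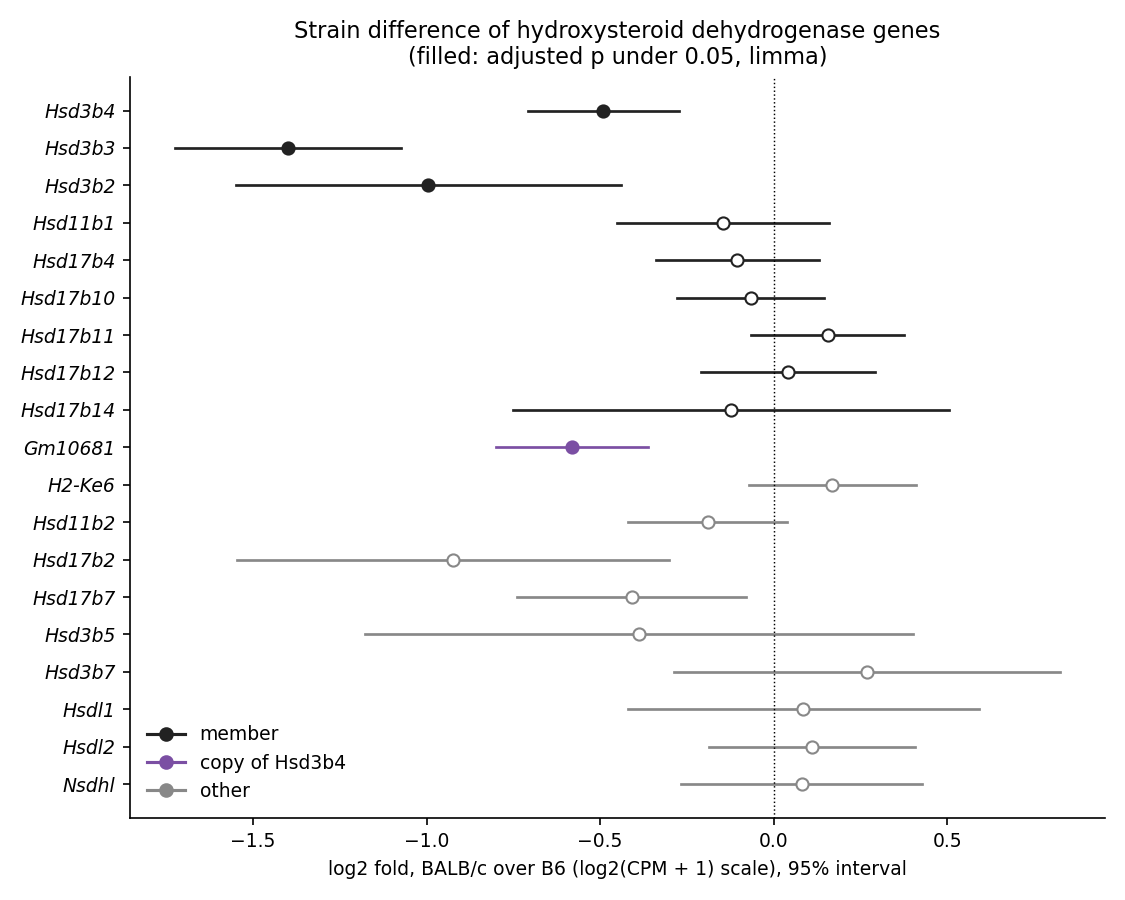
Log2 fold of each gene (BALB/c over B6, computed from log2(CPM + 1) values) with 95% intervals, filled where called. Drawn are the 9 chosen genes, Gm10681 and the 9 tested other hydroxysteroid dehydrogenase genes. Among the 9 chosen genes the intervals of Hsd3b3, Hsd3b2 and Hsd3b4 lie below 0, and those of the other 6 include 0. Intervals of Gm10681 (-0.80 to -0.36), Hsd17b2 (-1.55 to -0.30) and Hsd17b7 (-0.74 to -0.08) also lie below 0. Hsd17b2 and Hsd17b7 were not called, and all further intervals include 0.

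Hsd11b1, at chr1:193221634-193264075 on the minus strand, did not pass the test. It held 39.1, 45.0 and 41.9 CPM in B6 against 39.5, 41.8 and 32.9 CPM in BALB/c. The strains overlapped, with means of 42.0 ± 2.98 and 38.0 ± 4.61 CPM (SD, n = 3 each). Its log2 fold was -0.15 (SE 0.15, 95% interval -0.45 to 0.16, limma adjusted p = 0.641). Its opposite, Hsd11b2, which inactivates glucocorticoid in the distal nephron, stood at 115 ± 9.88 CPM in B6 against 100.3 ± 6.53 CPM in BALB/c (log2 fold -0.19, limma adjusted p = 0.341).

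H6pd, which makes the NADPH that Hsd11b1 uses inside the endoplasmic reticulum, was lower in BALB/c. It held 81.5, 60.8 and 66.3 CPM in B6 against 42.3, 45.8 and 47.5 CPM in BALB/c, and the strains did not overlap. The log2 fold was -0.60 (SE 0.14, limma adjusted p = 0.0051), and the adjusted p passed the threshold no longer without B6 replicate 1 or under a variance prior without a trend, with a highest value of 0.0887 over the alternatives. The receptors for these steroids were not called: Nr3c1, the glucocorticoid receptor, had a log2 fold of 0.06 (82.5 to 86.2 CPM) and Nr3c2, the mineralocorticoid receptor, one of -0.23 (1.55 to 1.35 CPM). Of 6 steroid receptor genes 5 were tested and limma called 0, as did limma-voom; 1 of them had an unadjusted p under 0.05. Of 8 glucocorticoid-responsive genes 2 rose and 0 fell by the test, with 4 negative folds and a list median of 0.05. The negative folds were those of Fkbp5 (-0.38), Tsc22d3 (-0.41), Sgk1 (-0.25) and Scnn1a (-0.31). None of these 4 was called, and they are named after their values were seen. Klf9, a transcription factor gene induced by glucocorticoids, rose from 379 ± 77.2 to 543 ± 37.5 CPM (log2 fold 0.54, limma adjusted p = 0.0031). The second was Zbtb16, at 1.06 and 5.97 CPM, named after its values were seen because it lies under the level set for naming.

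Other enzymes of steroid conversion included a far larger difference than any of the 9 genes. Of 15 listed genes 14 had a row and 8 were tested, 4 fell and 0 rose, with a list median of -0.52. The list includes H6pd, which supplies cofactor and converts no steroid, and without it 3 of 7 tested genes fell, with a median of -0.43. Akr1c21, a 3α/17α-hydroxysteroid dehydrogenase of the aldo-keto reductase family, fell from 1059.7 ± 145 to 1.89 ± 1.14 CPM (log2 fold -8.58, SE 0.19, limma adjusted p = 2.11e-19). Akr1c14, a 3α-hydroxysteroid dehydrogenase, fell from 25.8 ± 14.3 to 9.26 ± 4.29 CPM with overlap between the strains (log2 fold -1.30, limma adjusted p = 0.0170). Akr1d1, the 5β-reductase, fell from 9.39 ± 2.03 to 3.71 ± 1.28 CPM (log2 fold -1.16, limma adjusted p = 0.0187). Neither of the last 2 calls was stable. Both were lost with no filter on low values (adjusted p = 0.132 for Akr1c14 and 0.0797 for Akr1d1), and that of Akr1c14 under a robust prior (0.213). They were also lost without single libraries: Akr1c14 when replicate 1 or 3 of either strain was left out, and Akr1d1 when B6 replicate 2, B6 replicate 3 or BALB/c replicate 1 was.

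Hsd17b4, the peroxisomal multifunctional enzyme of fatty acid oxidation, lies at chr18:50128201-50196269 on the plus strand. Levels were 102, 102 and 93.6 CPM in B6 against 86.7, 86.7 and 103 CPM in BALB/c. BALB/c replicate 3 exceeded every B6 library while the other two lay below them. Its log2 fold was -0.11 (SE 0.11, 95% interval -0.34 to 0.13, limma adjusted p = 0.668). Among 19 tested genes of peroxisomal fatty acid oxidation 1 rose and 2 fell, with a list median of -0.03. Acox3, a branched-chain oxidase, fell from 96.6 ± 6.41 to 65.5 ± 9.12 CPM (log2 fold -0.56, limma adjusted p = 0.0041), and Crot, which exports shortened acids as carnitine esters, from 121 ± 10.6 to 84.8 ± 12.5 CPM (log2 fold -0.52, limma adjusted p = 0.0066). Eci2, an isomerase for unsaturated acids, rose from 63.9 ± 2.67 to 86.8 ± 8.68 CPM (log2 fold 0.43, limma adjusted p = 0.0235). The call of Crot was lost without B6 replicate 1, and that of Eci2 when B6 replicate 1, BALB/c replicate 2 or BALB/c replicate 3 was left out; exons of all 3 genes overlap other annotated genes.

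Hsd17b10, at chrX:152001845-152004442 on the plus strand, oxidises an intermediate of isoleucine breakdown and is also a subunit of mitochondrial RNase P, which trims transfer RNAs. Its levels were closely grouped, at 122, 131 and 137 CPM in B6 against 122, 124 and 127 CPM in BALB/c, and the strains overlapped. The log2 fold was -0.07 (SE 0.10, 95% interval -0.28 to 0.15, limma adjusted p = 0.781). Its RNase P partners were not called: Trmt10c, the methyltransferase subunit, had a fold of -0.26 (14.2 to 11.9 CPM) and the catalytic subunit, listed as 1110008L16Rik, one of 0.10 (54.1 to 58.0 CPM). Of 12 isoleucine breakdown genes 2 rose and 0 fell. Bckdhb, a subunit of the branched-chain ketoacid dehydrogenase upstream of Hsd17b10, rose from 68.9 ± 4.37 to 137 ± 5.13 CPM (log2 fold 0.98, limma adjusted p = 1.11e-06). Pccb, a subunit of propionyl-CoA carboxylase downstream of it, rose from 214 ± 11.5 to 368 ± 28.1 CPM (log2 fold 0.78, limma adjusted p = 3.14e-06). Both were called under all 17 alternatives.

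Hsd17b11, at chr5:103989762-104021919 on the minus strand, sits on lipid droplets. It had the highest fold of the 9 genes, with 130.3, 127 and 115 CPM in B6 against 129, 152 and 134 CPM in BALB/c. BALB/c replicate 1 lay inside the B6 range and the other two above it. Its log2 fold was 0.16 (SE 0.11, 95% interval -0.07 to 0.38, limma adjusted p = 0.442). Among 13 lipid droplet genes 2 rose and 2 fell. Plin2, the general droplet coat protein, fell from 60.2 ± 15.3 to 35.2 ± 7.7 CPM (log2 fold -0.75, limma adjusted p = 0.0092) and Rab18, a droplet GTPase, from 89.99 ± 4.7 to 67.8 ± 1.95 CPM (log2 fold -0.40, limma adjusted p = 0.0266). Plin5, the coat protein of oxidative tissues, rose from 3.41 to 9.48 CPM (log2 fold 1.24, limma adjusted p = 0.0135) and Pnpla2, the main triglyceride lipase, from 70.2 ± 15.3 to 94.1 ± 8.15 CPM (log2 fold 0.44, limma adjusted p = 0.0487). Each of these 4 calls was lost when single libraries were left out: Plin2 without B6 replicate 3 or BALB/c replicate 3, Plin5 without any of B6 replicate 3, BALB/c replicate 1 and BALB/c replicate 2, and Rab18 and Pnpla2 without any library other than B6 replicate 2. With no filter on low values Plin2 (adjusted p = 0.0709), Plin5 (0.0692) and Pnpla2 (0.133) were not called. The replicate number as a block also ended the calls of Rab18 (0.0608) and Pnpla2 (0.0844), and Pnpla2 was lost with total read scaling (0.0559), a pseudocount of 0.25 CPM (0.0569) and limma-voom (0.0569).

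Hsd17b12, the 3-ketoacyl-CoA reductase of fatty acid elongation, lies at chr2:94032689-94157964 on the minus strand. It held 80.0, 77.1 and 98.8 CPM in B6 against 89.8, 81.3 and 90.9 CPM in BALB/c, with all 3 BALB/c libraries inside the B6 range. The log2 fold was 0.04 (SE 0.12, 95% interval -0.21 to 0.29, limma adjusted p = 0.902). Of 10 tested elongation genes 1 rose and 1 fell. Hacd2, a dehydratase that acts on the product of Hsd17b12, fell from 71.2 ± 4.47 to 43.9 ± 15.9 CPM (log2 fold -0.74, limma adjusted p = 0.0065), a call lost without BALB/c replicate 2. Hacd4, of the same family, rose from 6.12 ± 4.83 to 14.5 ± 2.98 CPM (log2 fold 1.34, limma adjusted p = 0.0202), a call lost when replicate 1 or 3 of either strain was left out. With no filter on low values neither was called (adjusted p = 0.0598 for Hacd2 and 0.131 for Hacd4). Exons of both, and of Akr1c14 and Rab18, overlap other annotated genes.

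Hsd17b14, at chr7:45554893-45567752 on the plus strand, was the least abundant of the 9 and its values turned on 1 library. It stood at 7.71, 22.5 and 8.63 CPM in B6 against 11.9, 10.03 and 9.72 CPM in BALB/c. B6 replicate 2 was far above the other 5 libraries, with 223 reads against 70 to 123, and the other two B6 libraries were the lowest of all. Its log2 fold was -0.12 (SE 0.30, 95% interval -0.75 to 0.51, limma adjusted p = 0.874), and it was 0.33 without B6 replicate 2. B6 replicate 2 is also the library in which Hsd3b2, Hsd3b3 and Hsd3b4 had their lowest B6 values.

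Ranked by 3′ reads, in B6 Hsd3b4 led, followed by Hsd17b10 and Hsd17b11, whose ranges overlapped, then Hsd17b4, Hsd3b3 and Hsd17b12, whose ranges also overlapped, then Hsd3b2 and Hsd11b1 with overlapping ranges, and Hsd17b14 last. In BALB/c Hsd3b4 again led, followed by Hsd17b11, whose libraries all exceeded those of Hsd17b10, then Hsd17b10, and then Hsd17b4 and Hsd17b12 with overlapping ranges. Hsd3b3 ranked there below Hsd17b12 and Hsd11b1, and its range overlapped that of Hsd11b1 (32.9 to 41.8 CPM) and that of Hsd3b2.

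Of 15 other hydroxysteroid dehydrogenase genes, Hsd3b1, Hsd3b5, Hsd3b6 and Hsd11b2 among them, 9 were tested and 0 called by limma or limma-voom, with 2 at an unadjusted p under 0.05 (Hsd17b2 and Hsd17b7) and a median log2 fold of 0.08. This list leaves out Akr1c21 and Akr1c14, which were called and are counted above among other enzymes of steroid conversion. Hsd17b7, which also works in cholesterol synthesis, stood at 33.6 ± 1.29 CPM in B6 against 25.1 ± 1.77 CPM in BALB/c without overlap (log2 fold -0.41, limma adjusted p = 0.121). Hsd17b2, which inactivates oestradiol and testosterone, stood at 7.17 ± 0.41 and 3.31 ± 0.35 CPM without overlap (log2 fold -0.92, limma adjusted p = 0.0563) and is named after its values were seen. Nsdhl, Hsdl1, Hsdl2 and H2-Ke6 had folds from 0.08 to 0.17; H2-Ke6 shares 54.9% of its 3′ words with Gm20427.

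**Figure D4:**
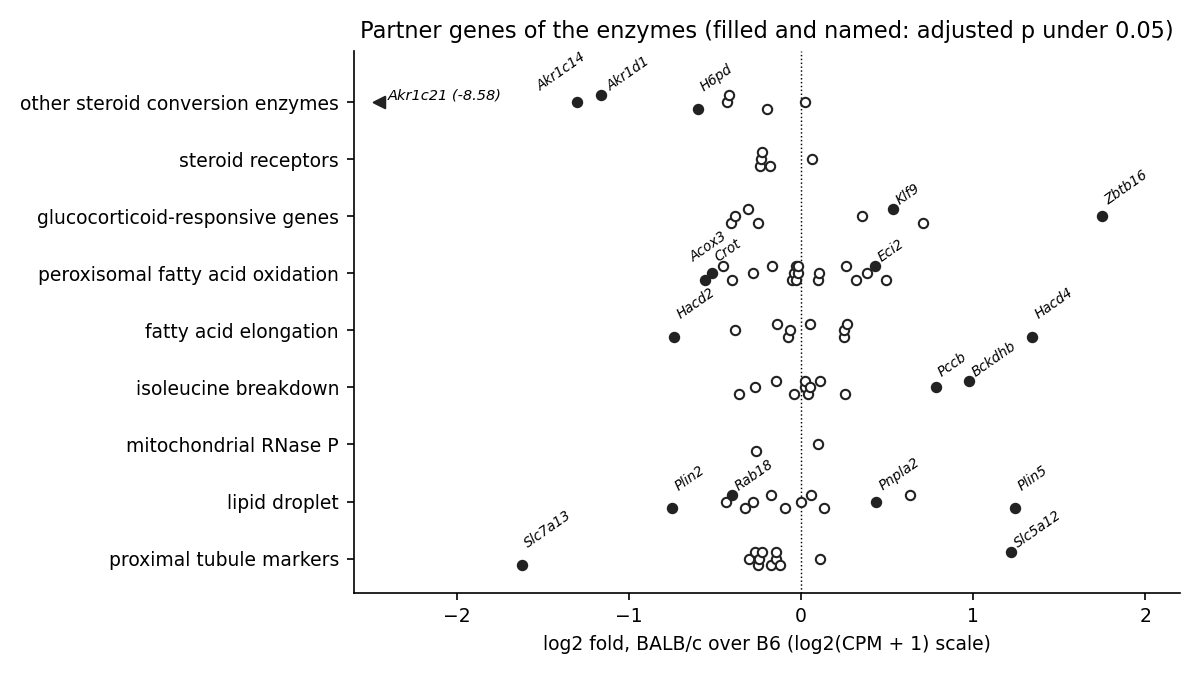
Log2 folds (BALB/c over B6) of tested genes in 9 lists of partner genes, 1 point per gene, filled and named where called. Akr1c21 at -8.58 lies beyond the axis and is drawn as an arrow; called genes lie on both sides of 0 in the peroxisomal, elongation, lipid droplet and proximal tubule lists.

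Hsd3b3, the gene with the largest fold, was compared with the 8714 tested genes that had a mean of at least 10 CPM. The closest patterns over the 6 libraries were those of Folh1, a carboxypeptidase (Pearson r = 0.995, log2 fold -0.46), Tspan33, a tetraspanin (r = 0.993, -0.92), and Enpp3, a nucleotide pyrophosphatase (r = 0.993, -0.63). With 142 genes over an r of 0.95, these r values describe 6 points that share the strain difference.

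The libraries held 8310798 to 10416332 reads. The first principal component (45.2% of the variance) separated the strains. All 12 proximal tubule markers, of the segment that makes up most of the kidney cortex, were read; their summed level was 21465, 17530 and 23153 CPM in B6 against 20003, 18740 and 18059 CPM in BALB/c, overlapping between the strains with replicate 2 the lowest of the B6 libraries. Kap alone (12502, 9120.1 and 14401 CPM in B6) made up most of that sum. Without Kap the other 11 markers summed to 8963, 8409.7 and 8752 CPM in B6 against 8199.7, 7803 and 8708 CPM in BALB/c, and Slc34a1, Slc13a3 and Aqp1 were highest among the B6 libraries in replicate 2. Of these 12 markers, 1 rose (Slc5a12, log2 fold 1.22) and 1 fell (Slc7a13, -1.62, named after its values were seen and lost without B6 replicate 1), and 10 folds were negative. Of 5 tested androgen-responsive kidney genes limma and limma-voom called 0, with 3 at an unadjusted p under 0.05, and Kap stood at 12008 ± 2675 and 10697 ± 1244 CPM. Adrenal cortex, which expresses Hsd3b genes strongly and lies beside the kidney, was checked by 8 markers: Cyp11b1, Cyp11b2, Cyp21a1, Mc2r and Nr5a1 were at 0 in all libraries, Cyp11a1 had 1 read in 1 library, and the sum of 7.97 to 9.91 CPM in B6 and 10.6 to 17.1 CPM in BALB/c was otherwise Star and Akr1b7. Summed macrophage markers (6 of 6 read) were 100.1 to 122 CPM in B6 against 149 to 168 CPM in BALB/c. Csf1r alone rose (63.0 to 118 CPM), and the other 5 summed to 42.4 to 48.2 CPM in B6 and 35.6 to 46.1 CPM in BALB/c, with C1qb (15.4 to 9.84 CPM) and Adgre1 (3.43 to 1.82 CPM) lower on average. Summed fibroblast markers (5 of 5) stood at 292 to 377 and 283 to 333 CPM, and adipocyte markers (6 of 6) at 0 to 8.87 and 0.50 to 5.32 CPM. Of the 5 fibroblast markers 1 fell and 0 rose, with 3 negative folds. Col1a2 fell from 168 ± 12.6 to 119 ± 18.6 CPM without overlap (log2 fold -0.50, limma adjusted p = 0.0054). That call was lost without BALB/c replicate 1. The part of these cell types in the differences above was not tested. Xist was read in all 6 libraries at 104 to 193 CPM and was higher in BALB/c without overlap (log2 fold 0.56, limma adjusted p = 0.0044), although its exons overlap those of its antisense gene Tsix. Of the Y-linked genes Uty, Kdm5d and Eif2s3y were at 0 in all libraries, and Ddx3y had 1, 1 and 0 reads in B6 and 8, 0 and 0 in BALB/c.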

How the data were processed

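Whole-kidney RNA of 3 B6 and 3 BALB/c mice was extracted with Trizol and read with a 3′ end kit, per the labels' protocols. Bowtie2 and bedtools were used with mm10, an assembly of the B6 strain, per the submitters' processing notes; for versions, annotation, strand and the treatment of multiply aligned reads the entry is: not given in the sources used here. As for the values, the authors deposited log2 values, 1 per row, that match log2(CPM + 1): every low value was a whole number of reads within 0.1 read, and 8310798 to 10416332 reads per library were recovered. Several rows were held by 35 symbols. Sums of the CPM differed between libraries (980188.4 to 1043599), so they were not scaled to these read totals alone. Genes with a deposited log2 value of at least 1 in at least 3 libraries (13317) were fitted with limma 3.58.1 in R 4.3.3 on strain alone, with a trend in the variance prior and Benjamini-Hochberg adjustment (threshold 0.05); 4 residual degrees of freedom were joined by 18.4 from the prior. Folds on the log2(CPM + 1) scale understate changes of low genes. Between libraries of a strain, chi-square per degree of freedom was 7.75 to 16.3, above sampling noise. Sequences, exon overlaps and shared 3′ words came from GENCODE M21 (GRCm38) and promoters from RefSeq. The 9 genes and all lists were chosen with earlier results of these data known. Named were the 9 genes, other hydroxysteroid dehydrogenases called or at 10 CPM or more on average, direct partners, and up to 4 called genes per list at 5 CPM or more; the likeness search took the 3 highest r. Some genes that these rules reach are not reported here, and lists and neighbours are counted without them. Alternatives covered scaling, pseudocount, filter, variance prior, limma-voom, a replicate block and leaving out each library.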

Additional observations from a re-analysis of the deposited data

How the results depend on the processing

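With the variance prior not following the expression level, 493 genes were called in place of 1211, and 1 of the 9 genes (Hsd3b3) in place of 3; Hsd3b4 then had a log2 fold of -0.49 and an adjusted p of 0.166, Hsd3b2 -0.99 and 0.246, and the summed reads of Hsd3b1 to Hsd3b6 -0.57 and 0.123, of these with Gm10681 -0.57 and 0.119, and of Hsd3b4 with Gm10681 -0.53 and 0.142. Of the partner genes and markers named as called, Akr1c21, Zbtb16, Bckdhb, Pccb, Slc5a12, Slc7a13 and Csf1r were still called with that prior and the others were not. Hsd3b2, at the same fold of -0.99, also lost its call without a filter (adjusted p = 0.135) and with a robust prior (0.257). Leaving out 1 library at a time gave 797 (without BALB/c replicate 1) to 1138 genes called (806 without B6 replicate 1) and 1 (without B6 replicate 1) to 3 of the 9 genes, with log2 folds of -1.37 to -0.71 for Hsd3b2, -1.59 to -1.29 for Hsd3b3, -0.64 to -0.41 for Hsd3b4 and -0.72 to -0.48 for the summed Hsd3b1 to Hsd3b6. Among genes that were not called, Hsd17b12 ran from -0.0275 (without B6 replicate 2; -0.001 without B6 replicate 1) to 0.15 and Hsd17b14 from -0.39 to 0.33 (without B6 replicate 2), and Hsd11b1 from -0.21 to -0.05. None of the 6 genes that were not called gained a call under the alternatives run. Replicate numbers did not pair the libraries (correlations of same-numbered libraries' deviations 0.01, -0.06 and -0.08); with them as a replicate block 977 genes and 3 of the 9 were called, and of the partner genes Rab18 and Pnpla2 lost their calls. The other scalings, pseudocounts, filters and limma-voom gave 855 to 1242 genes. A planned edgeR test on recovered reads was not run. Hsd3b2, Hsd3b3 and Hsd3b4 had 130 or more reads in every library and Hsd17b14 had 70 to 223, so among the 9 genes counting error weighs most on Hsd17b14.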
